A study of Homo sapiens with 15 samples.

Results

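Recovery of DNA methylation after DNMT1 knockdown was followed in HCT116, an established human colon cancer cell line. The comparison holds 4 of the 15 whole-genome bisulfite libraries, the Baseline and Recovery libraries of 2 bulk cell populations, R1 and R2. Both populations carry an integrated shRNA against DNMT1 that doxycycline switches on, at Baseline as well as at Recovery. Baseline cells (day 14) grew without doxycycline. Recovery cells (day 28) were given 10 ng/mL doxycycline for 14 days and were then kept without it for another 14 days. A bulk population is a mixture of cells with different integration sites, selected with puromycin and not expanded from 1 cell. The 2 Knockdown libraries of the same populations (day 14 of doxycycline) are not compared, but enter the estimate of the spread in the main tests of regions. The 9 libraries of 3 shUHRF1 clones (Cl.3, Cl.6 and Cl.9 at the same stages) are used beside the comparison. They also serve to group CpGs and windows and enter an alternative fit.

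DNMT1 is the enzyme that copies CpG methylation onto the new DNA strand after replication, and UHRF1 is the protein that brings it to half-methylated sites. When DNMT1 is short, methylation is diluted as cells divide. Highly methylated domains (HMDs) usually hold genes and replicate early, partially methylated domains (PMDs) are gene-poor and replicate late, and low-methylated and unmethylated regions (LMRs and UMRs) often mark enhancers and CpG island promoters. Isolated CpGs with A or T on both sides (solo-WCGW) are known to lose methylation readily in dividing cells.

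The methylation level (mC) of a CpG is the number of reads that kept C divided by all reads at that CpG, given here in percent, and changes are in percentage points. The 4 libraries held 373710741 to 498923318 reads at CpGs, with a median of 12 to 17 reads per CpG. At 5 reads, the minimum used, the 95% Wilson interval of a single mC reaches up to 32.6 points on either side, and at 20 reads 20.1 points. Single CpGs are therefore read in large groups or in regions. The 2 Knockdown libraries kept C in 40.3% and 39.4% of reads at CpGs, against 72.8% to 73.7% in the 4 compared libraries. DNMT1 itself was not measured by these data, and its promoter (chr19:10231186-10232286, hg38) is named after its values were seen. It was methylated to 24.6%, 9.31% and 22.8% in R1 at Baseline, Knockdown and Recovery, and to 24.6%, 10.6% and 21.6% in R2, averaged over CpGs. From summed reads Recovery was above Baseline (37.9% and 47.1% in R1, 30.2% and 39.0% in R2), so no direction is read for Recovery.

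Recovery left methylation slightly under Baseline by nearly the same amount in both populations. Over the 23147668 CpGs with at least 5 reads in all 4 libraries, mean mC was 74.9% at Baseline and 73.7% at Recovery in R1, and 74.9% and 73.8% in R2. The change was -1.16 points in R1 and -1.15 points in R2, a mean of -1.16 ± 0.00792 points (SD, n = 2). At Baseline R2 was above R1 by 0.0369 points. With 2 populations the exact two-sided sign-flip permutation test cannot go below p = 0.5, which is the value here. All 24 chromosomes were lower at Recovery in both populations, with means between -1.22 points on chr3 and -1.03 points on chr21, apart from chrY, where R1 changed by -0.388 and R2 by -0.537 points over 752 CpGs. Weighting by reads moved the genome-wide mean to -0.878 points. Recovery cells were also 14 days older than Baseline cells, so incomplete recovery and time in culture cannot be told apart. Nor can slightly less methylation in every cell and a share of cells with much less.

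The deficit varied with how close a CpG lay to its nearest neighbour. Highly methylated CpGs (mC of 85% or more) were chosen in the Baseline of the other population, because a CpG chosen for a high value in its own Baseline tends to read lower the next time. Low-density CpGs, with no other CpG closer than 20 bp, changed by -1.43 points in R1 and -1.43 in R2. High-density CpGs changed by -0.850 and -0.870 points. The difference between the classes was -0.578 points in R1 and -0.556 in R2, a mean of -0.567 ± 0.0157 points (SD, n = 2). Low-density CpGs also started lower, at 95.4% in R1 against 96.2%, and the part of this in the difference was not tested. CpGs 2 bp from the next one, where a pair of CpGs adjoins, changed by -0.426 and -0.475 points. At 35 bp the change was -1.49 in both populations, and from 40 to 100 bp it stayed between -1.62 and -1.39 points. The plot of change by distance shows this course for both populations.

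**Figure D1:**
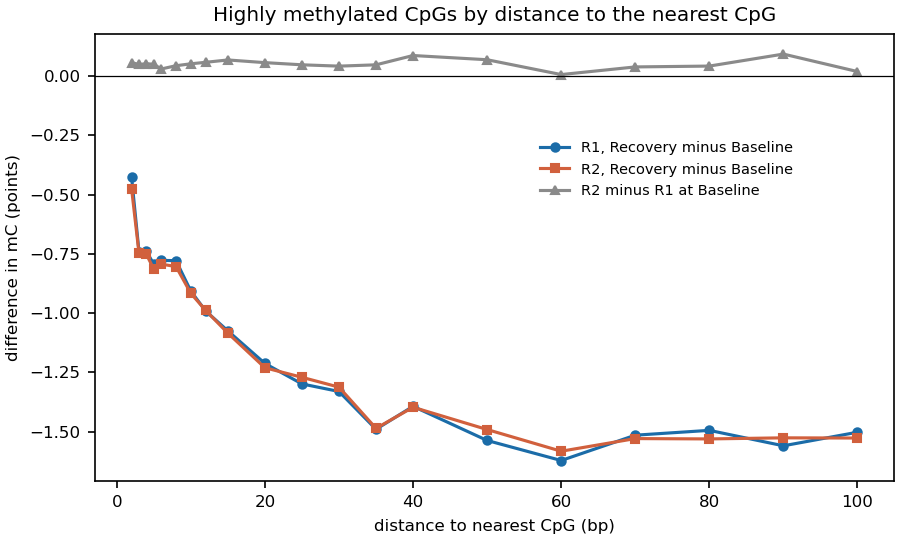
Change in mC at highly methylated CpGs (y axis, percentage points) by the distance to the nearest CpG (x axis, bp), for R1 and R2 from Baseline to Recovery, with the R2 minus R1 difference at Baseline at CpGs chosen in the clones. The curves of R1 and R2 run together from -0.426 and -0.475 points at 2 bp to -1.49 points at 35 bp, while the Baseline difference stays between 0.00621 and 0.0926 points.

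Among isolated CpGs, with none within 35 bp, the changes differed further by the neighbouring bases. Solo-WCGW CpGs changed by -1.94 points in R1 and -1.91 in R2, from 94.5% and 94.4% at Baseline. Isolated CpGs in other contexts changed by -1.30 and -1.31 points. Of the 10 flank classes, both strands counted together, ACGA had the most negative change, -1.95 points in R1 and -1.93 in R2, and was followed by ACGT and TCGA. GCGC had the smallest change, -0.857 and -0.927 points. The 5 most negative classes came in the same order in R1 and R2. The spread between the populations within a class, up to 0.0496 points (SD), was far below the range over classes. Baseline mC also differed between classes, from 94.4% at TCGA to 96.6% at GCGC in R1. The part of this in the changes was not tested.

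The change also varied with the starting level. With CpGs grouped by their pooled Baseline mC in the 3 clones, which the changes in R1 and R2 do not enter, CpGs under 5% changed by -0.0198 points in R1 and -0.0471 in R2. CpGs of 70% to 80% had the most negative change, -2.37 and -2.26 points. At 95% or more it was -1.0005 and -1.02 points. No group of CpGs by Baseline level lay above Baseline at Recovery, and the R2 minus R1 difference at Baseline was between -0.0417 and 0.0629 points in these groups. The plot by Baseline level shows the trough at intermediate to high levels.

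**Figure D2:**
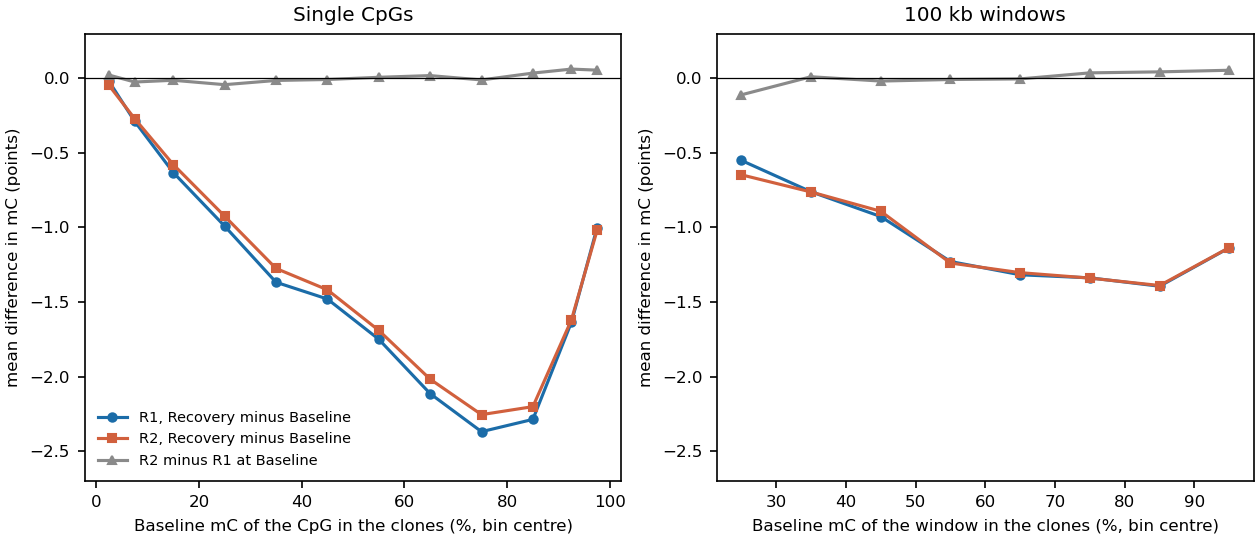
Change in mC from Baseline to Recovery (y axis, percentage points) by Baseline mC in the 3 clones (x axis, percent), for R1 and R2. CpGs are grouped by the pooled reads of the clones, and 100 kb windows by the mean of the 3 clones. The CpG curves reach -2.37 points in R1 and -2.26 in R2 at 70% to 80% and stay near 0 under 5%.

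HMDs and PMDs both carried deficits, and their order depended on whether the LMRs and UMRs inside PMDs were counted. Domain lists were deposited for each library, and a list from the same Baseline that a change is taken from favours values of the next reading that lie nearer the average, so each population is described here with the domains of the other Baseline. HMD CpGs changed by -1.24 points in R1 (from 92.5%) and -1.21 in R2 (from 92.6%), and PMD CpGs by -1.18 (from 55.4%) and -1.19 (from 56.0%). Inside HMDs low-density CpGs changed by -1.53 and -1.49 points and high-density CpGs by -0.854 and -0.852. Inside PMDs the same classes changed by -1.25 and -1.27 points and by -1.03 and -1.04, a smaller gap. PMD CpGs outside LMRs and UMRs changed by -1.45 points in both populations, more than HMD CpGs, from which LMRs and UMRs are already left out. LMR CpGs changed by -0.731 and -0.728 points and UMR CpGs by -0.446 and -0.462. UMR CpGs inside PMDs changed by -0.652 and -0.669 points, from 26.5% in both populations. Those outside PMDs changed by -0.201 and -0.213 points, from 3.39% and 3.37%. Using the other Baseline was decided after the data were seen. With the lists of the own Baseline HMDs changed by -1.27 and -1.25 points, PMDs by -1.16 and -1.16 (-1.86 and -1.75 outside LMRs and UMRs), UMRs by -0.0957 and -0.200 and LMRs by 0.389 and 0.0998, so the sign for LMRs depends on which Baseline drew the regions, and no overshoot of LMRs is read from it. Promoters of protein-coding genes changed by -0.724 and -0.736 points, gene bodies by -1.13 and -1.12, and sequence outside both by -1.22 and -1.21.

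In windows of 100 kb the deficit was widespread and overshoots were rare. A window is called when edgeR's quasi-likelihood test of methylated against unmethylated reads, Recovery against Baseline with the population as a block, gives an adjusted p under 0.05. Of 28398 windows, 11250 were called lower (39.6%) and 23 higher (0.081%). In 93.0% of windows mC was lower at Recovery in both populations, and in 0.937% it was higher in both. The median change was -1.13 points in R1 and -1.12 in R2, and the median R2 minus R1 difference at Baseline was 0.0389 points. The changes of R1 and R2 correlated across the 28398 windows with r = 0.427, against r = 0.0224 for the R2 minus R1 differences at Baseline and at Recovery. Windows share their libraries, so these correlations describe the 4 libraries only. A window held a median of 11095 to 14769 reads per library, which gives a 95% Wilson half-width of about 0.709 points from counting. Leaving out the Recovery library of R1 gave 3790 windows called lower and 13 higher, leaving out the Baseline library of R2 gave 5908 and 65 higher, and leaving out the Recovery library of R2 gave 7156. A fit of all 15 libraries, in which the larger spread of the clones enters, called 0 windows by edgeR, with 19 lower and 0 higher at an unadjusted p under 0.05.

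**Figure D3:**
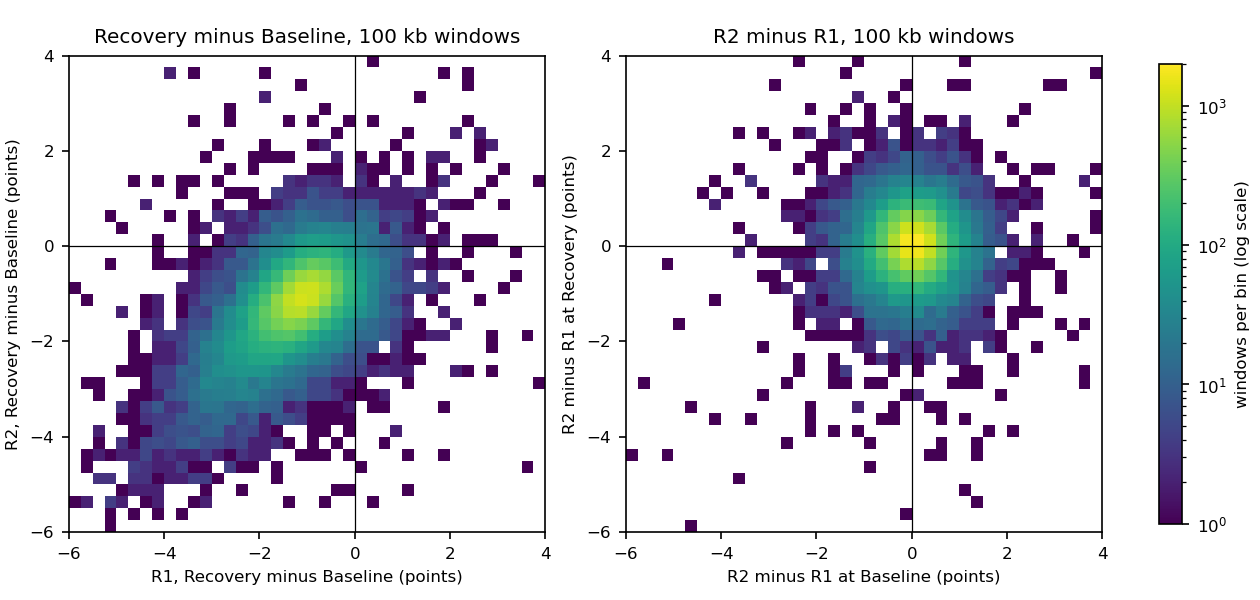
Left, change in mC of 100 kb windows from Baseline to Recovery in R2 (y axis, percentage points) against R1 (x axis, percentage points). Right, the R2 minus R1 difference at Recovery against that at Baseline on the same scales. Colour gives the number of windows. The cloud on the left lies mostly at the lower left, where both changes are negative for 93.0% of windows, with r = 0.427, and the cloud on the right is centred near 0 with r = 0.0224.

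A shared deficit or overshoot is a window whose mC changed by at least 2 points in the same direction in both populations, and by more than R2 and R1 differed at Baseline. There were 1697 shared deficits (5.98% of windows) and 14 shared overshoots (0.0493%). The same rule applied to R2 minus R1 at Baseline and at Recovery, each larger than the change in R1, gave 20 windows lower and 13 higher, so overshoots were about as frequent as windows in which the populations differ at both stages. Of the shared deficits 1512 were called and of the shared overshoots 5. Among the 14 overshoots, 7 had under 100 CpGs, as did 25 of the 1697 deficits and 365 of all windows.

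HMD windows were called most often and PMD windows had the larger share of shared deficits. Of 8132 windows with at least 90% of their CpGs in HMDs of both Baselines, 72.8% were called lower and 3.25% were shared deficits, with mean changes of -1.20 points in R1 and -1.19 in R2. Of 9360 windows with as large a share in PMDs, 10.1% were called lower and 7.64% were shared deficits, with mean changes of -1.07 and -1.08 points. HMD windows had 663 CpGs and PMD windows 556 CpGs at the median. The share called did not follow the size of the deficit in points. At 50% to 60% Baseline mC in the clones 10.1% were called lower, with mean changes of -1.23 and -1.24 points. At 90% to 100% it was 77.0%, with -1.14 and -1.13 points. The test works on the log ratio of methylated to unmethylated reads. On that scale the same change in points is larger near 100%, and the part of this in the shares called was not tested. Gene-poor and CpG-poor windows held most of the shared deficits. The share was 9.52% in windows without a protein-coding gene and 1.39% in windows with 3 or more. It was 10.3% in windows under 400 CpGs, 12.1% in windows of 400 to 600 and 0.0345% in windows of 1400 or more. Fewer CpGs also mean fewer reads and more scatter, and the part of that in these shares was not tested. In the clones, the shared-deficit windows changed by -10.4 points in Cl.3, -10.7 in Cl.6 and -27.1 in Cl.9, against -7.43, -10.1 and -18.5 points over all windows. The clones carry another shRNA, grew from single cells and were deposited in other tables, and these differences between them and the bulk populations cannot be told apart.

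Some of the deepest window deficits lay side by side. In 357 windows both populations were lower by at least 3 points, and 218 of these adjoined another such window. This limit was chosen after the values were seen, and the runs it makes are a description. Joining at least 4 neighbouring windows gave 13 runs with 87 windows and 8.7 Mb in all, and 270 of the windows lay outside runs. Their Baseline mC in R1 was 60.9% to 85.9%, their changes were -5.77 to -3.42 points, and R2 minus R1 at Baseline was -0.369 to 0.682 points. All 87 windows were called, with adjusted p of 0.0137 or less (edgeR). These calls rest on the reads by which the windows were picked and are no separate support. No protein-coding gene lay in 8 of the 13 runs, and on average 36.7% to 100% of the CpGs of a run's windows lay in PMDs of both Baselines.

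The longest run was chr5:117400001-118800000, 14 windows without a protein-coding gene. Its mC was 69.9% at Baseline and 65.2% at Recovery in R1, and 69.9% and 65.4% in R2. At Knockdown it had been 39.2% and 38.9%. A second run on the same chromosome, chr5:125100001-126100000 with 10 windows, was at 81.8% and 77.4% in R1 and at 81.4% and 77.3% in R2. At Recovery both populations lay well above their Knockdown values in these runs, and about 4 to 5 points under Baseline.

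The deepest of the 13 runs was chr1:95300001-96200000, 9 windows, at 68.4% and 63.1% in R1 and at 68.7% and 63.0% in R2. The clones changed there by -16.3 points in Cl.3, -9.57 in Cl.6 and -37.3 in Cl.9, so Cl.6 was near its mean over all windows and the other clones were below theirs. A run of 9 windows on chr2:56200001-57100000 holds CCDC85A, which encodes a coiled-coil protein, and went from 85.9% to 81.5% in R1 and from 85.6% to 81.4% in R2. A run of 7 windows on chr11:103500001-104200000 holds DDI1, a gene of the proteasome shuttle family, and PDGFD, which encodes a platelet-derived growth factor. It went from 76.8% to 72.1% in R1 and from 76.9% to 71.9% in R2. PID1, PGR (the progesterone receptor gene) and SLC35F1 were the protein-coding genes of the other runs that had any.

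**Figure D4:**
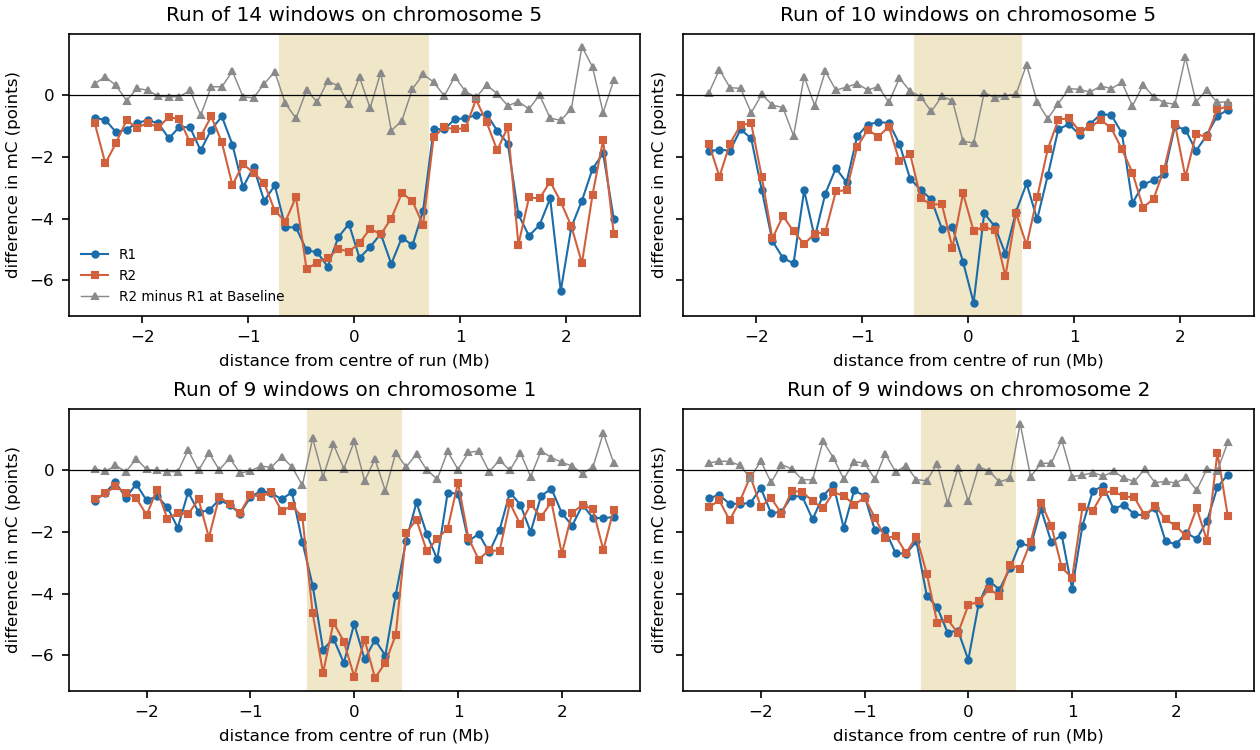
Change in mC of 100 kb windows from Baseline to Recovery (y axis, percentage points) along the 4 longest runs and their flanks. The x axis is the distance from the middle of the run (Mb). Lines are given for R1, for R2 and for the R2 minus R1 difference at Baseline. Within the runs both populations lie under 0, with changes of -6.74 to -3.07 points per window. The Baseline difference there lies between -1.55 and 1.03 points.

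Of the 5 called windows with the lowest weaker change, meaning the change nearer to 0 of R1 and R2, 4 lay in the chr1 run. chr1:96000001-96100000, which overlaps the long noncoding RNA gene LINC02790, had 74.7% and 68.7% in R1 and 74.1% and 67.8% in R2 (adjusted p = 0.00135, edgeR). The next, chr1:95400001-95500000 with LINC01761, had 59.97% and 54.2% in R1 and 59.8% and 53.2% in R2 (adjusted p = 0.00146, edgeR). The other window of the 5, chr6:58000001-58100000, lies near the centromere and had 211 CpGs, with changes of -5.68 and -6.35 points.

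Higher windows were few. The 14 shared overshoots changed by 3.74 points in R1 and 3.68 in R2 on average. The 5 windows higher by at least 3 points in both populations had only 5 to 52 CpGs, and none was called (adjusted p = 0.266 to 0.901, edgeR). The 5 with the highest weaker change among windows called higher follow. chr20:7200001-7300000, which overlaps the noncoding gene LINC01428, had 39.98% at Baseline and 42.5% at Recovery in R1, and 39.6% and 42.3% in R2 (adjusted p = 0.0114, edgeR). The neighbouring windows chr14:24500001-24600000 and chr14:24600001-24700000 hold genes for proteases of immune cells, CMA1 and CTSG in the first and GZMB and GZMH in the second. The first had 52.5% and 54.7% in R1 and 52.2% and 54.5% in R2, and the second 48.4% and 50.8% in R1 and 48.3% and 51.7% in R2. The remaining windows overlap ITGBL1 on chr13 and SNTG2 on chr2, with changes of 2.63 and 2.26 points and of 2.79 and 2.02 points. In each of these 5 windows both Recovery values lay above both Baseline values, which the rule for shared overshoots already requires. None of the 5 calls held in every fit with 1 library left out, and adjusted p (edgeR) then ranged up to 0.46.

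At promoters, taken from 1 kb upstream to 100 bp downstream of the start of protein-coding and long noncoding RNA genes, changes were small and no promoter was called. Of 33855 promoters edgeR called 0 (0%) in either direction, with 2086 lower and 336 higher at an unadjusted p under 0.05, and limma called 0 as well, with 2225 and 447. The median change was -0.641 points in R1 and -0.617 in R2. Promoters under 10% at the other population's Baseline changed by -0.169 and -0.197 points on average, those of 70% to 90% by -1.54 and -1.50, and those of 90% or more by -1.21 and -1.19. Shared deficits of at least 5 points were found at 521 promoters (1.54%) and shared overshoots at 84 (0.248%), while R2 minus R1 gave 147 lower and 131 higher. Changes of R1 and R2 correlated with r = 0.0909 over the 33855 promoters, against r = -0.00346 for R2 minus R1 at the 2 stages. The signs of R1 and R2 were opposite at 42.1% of promoters. At 19.9% the mean over CpGs and edgeR's change from summed reads had different signs. Leaving out 1 library gave 0 to 5 promoters called lower and 0 to 3 higher.

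The 10 promoters with the lowest weaker change were all shared deficits and none was called (adjusted p = 0.39 to 0.799, edgeR). They had 5 to 59 CpGs, and counting alone gives half-widths of 3.63 to 10.8 points. OR2G2, an olfactory receptor gene (chr1:247587360-247588460, 6 CpGs), was at 64.4% and 46.4% in R1 and at 58.8% and 34.4% in R2. STEAP4, which encodes a metalloreductase (chr7:88306794-88307894, 30 CpGs), was at 51.6% and 38.7% in R1 and at 51.9% and 33.4% in R2. For both genes the Recovery values of both populations lay under both Baseline values, which the rule for shared deficits already requires.

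IL1A, the gene of the cytokine interleukin-1 alpha (chr2:112784393-112785493, 14 CpGs), was at 51.5% and 39.5% in R1 and at 55.05% and 43.0% in R2. ISL1-DT, a noncoding RNA gene divergent from the homeobox gene ISL1 (chr5:51383232-51384332, 59 CpGs), was at 32.6% and 20.8% in R1 and at 34.9% and 18.1% in R2. It had the most CpGs and reads of the 10. DEFB110, a beta-defensin gene (5 CpGs), was at 98.9% and 87.3% in R1 and at 99.0% and 86.3% in R2, and was called without the Recovery library of R2 (adjusted p = 0.0204, edgeR). CAPZA3, which encodes an actin-capping subunit of sperm (6 CpGs), had changes of -11.8 and -15.5 points. The other 4 were TRPC7-AS2, ENSG00000275437, ENSG00000289237 and ENSG00000287841, all noncoding RNA genes. In all 3 clones 8 of the 10 were lower at Recovery, as were 88.1% of all promoters.

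**Figure D5:**
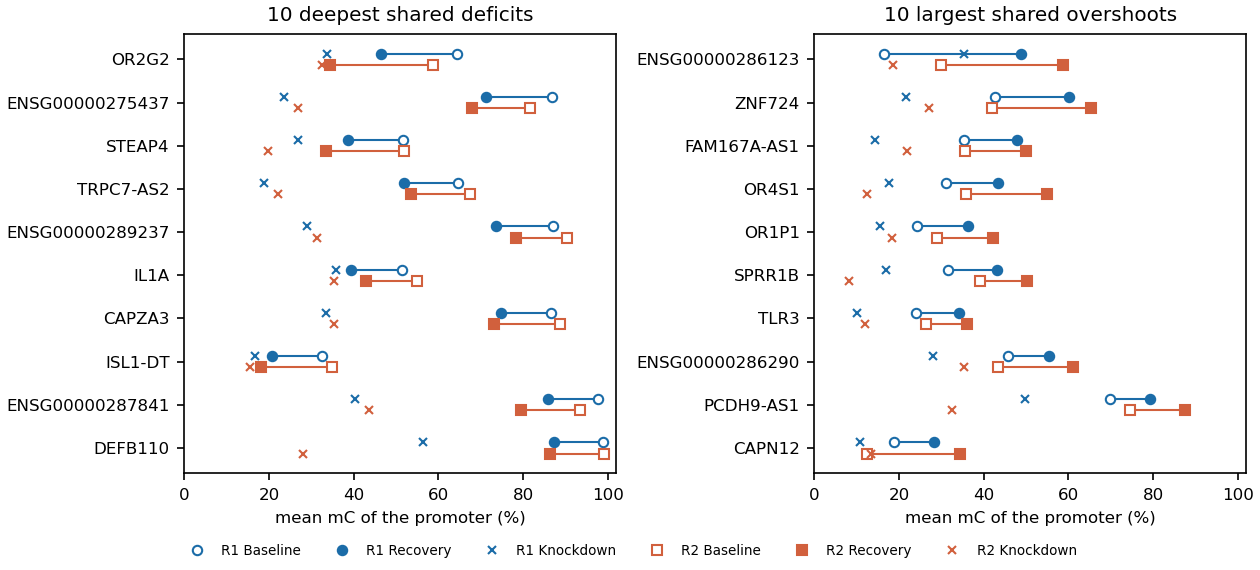
mC (x axis, percent) of the 10 promoters with the lowest and the 10 with the highest weaker change (y axis), in each Baseline, Knockdown and Recovery library of R1 and R2. Each promoter has its Recovery points on the same side of its Baseline points in both populations, as the rule for shared changes requires. STEAP4 moves from 51.6% to 38.7% in R1 and TLR3 from 24.0% to 34.2%.

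The 10 promoters with the highest weaker change were shared overshoots, none of them called (adjusted p = 0.39 to 0.871, edgeR). They had 6 to 19 CpGs and half-widths of 6.13 to 12.9 points. The largest was the noncoding gene ENSG00000286123 (chr14:40348231-40349331, 17 CpGs), at 16.5% and 48.7% in R1 and at 30.0% and 58.6% in R2, but the Baselines differed by 13.5 points and the Knockdown values were 35.5% and 18.6%. It was called with the 4 compared libraries alone (adjusted p = 0.00126, edgeR) and without the Baseline of R2 or the Recovery of R1 (adjusted p = 3.27e-05 and 7.59e-05, edgeR). ZNF724, a zinc finger gene (chr19:23250294-23251394, 19 CpGs), was at 42.8% and 60.1% in R1 and at 42.0% and 65.2% in R2. TLR3, the gene of a receptor for double-stranded RNA (chr4:186067911-186069011, 14 CpGs), was at 24.0% and 34.2% in R1 and at 26.3% and 36.1% in R2.

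The olfactory receptor genes OR1P1 and OR4S1 had changes of 12.1 and 13.1 points and of 12.2 and 19.2 points. SPRR1B, a gene of the cornified envelope of skin, had changes of 11.6 and 10.9 points, and R2 minus R1 was 7.67 points at Baseline. Its fitted log2 change was -0.0094 without the Recovery library of R2. CAPN12, a calpain protease gene, had changes of 9.42 and 22.1 points. The remaining 3 were the noncoding genes FAM167A-AS1, ENSG00000286290 and PCDH9-AS1. In all 3 clones 5 of the 10 were lower at Recovery, against 88.1% of all promoters.

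Gene lists from 8 groups in which promoter methylation is often studied were then examined. None of their members was called (edgeR). Imprinted genes carry methylation on 1 parental copy. Of 37 measured, 17 were lower in both populations and 6 higher in both, with medians of -0.727 points in R1 and -1.37 in R2. PEG10, an imprinted gene derived from a retrotransposon (chr7:94655325-94656425), was the shared deficit among them, at 34.2% and 23.8% in R1 and at 32.6% and 15.4% in R2. GNAS-AS1 had the highest mean change, 3.71 and 5.31 points. KCNQ1OT1, named after its values were seen, was an example of a change in 1 population, at 41.4% and 19.7% in R1 but at 24.0% and 22.6% in R2. At Knockdown it was at 24.2% in R1 and 29.4% in R2. R2 minus R1 at Baseline was -17.4 points, so the R1 Baseline value stood apart.

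Developmental regulators, 37 measured, had 17 lower and 4 higher in both. ISL1, a LIM homeobox gene of motor neurons and heart (chr5:51382448-51383548, 91 CpGs), was a shared deficit at 37.0% and 28.8% in R1 and at 43.5% and 25.3% in R2. Its promoter overlaps that of ISL1-DT, so the deficits of both rest in part on the same reads. FOXA1, a pioneer factor, had changes of 4.62 and 5.35 points. Germline genes, 32 measured, had 16 lower and 6 higher in both, from MAGEC2 at -2.60 and -6.90 points to MAGEA1 at 6.85 and 4.66. Both are cancer-testis antigen genes. R2 minus R1 at Baseline was 5.02 points at MAGEC2, larger than its change in R1, and 7.02 at MAGEA1, larger than both its changes. Genes silenced by methylation in colorectal cancer, 33 measured, had 12 lower and 7 higher in both. TIMP3, a metalloproteinase inhibitor, had changes of -9.44 and -4.97 points averaged over CpGs, but from summed reads it was at 70.7% and 72.3% in R1 and at 73.2% and 74.8% in R2, so its direction is not settled. GATA5 had changes of 3.48 and 1.71 points, but R2 minus R1 at Baseline was larger, 3.70 points.

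Colon identity genes, 21 measured, had 14 lower and 2 higher in both, with medians of -2.05 points in R1 and -1.53 in R2. KLF5, a factor of crypt cells, had changes of -11.0 and -4.07 points, and CEACAM5, the carcinoembryonic antigen gene, of 2.75 and 0.817. At CEACAM5 R2 minus R1 at Baseline was -3.75 points, larger in size than both changes. Interferon genes, 24 measured, had 10 lower and 1 higher in both, that 1 being TLR3, while OAS2 had -3.20 and -5.24 points. Genes of the methylation machinery, 22 measured, had 7 lower and 6 higher in both. TET1, which encodes an enzyme that oxidises methylated cytosine, had the highest mean change, with 3.71 points in R1 and 0.252 in R2. Ribosomal protein genes, 26 measured, had 16 lower and 1 higher. RPL3 was a shared deficit, at 60.4% and 49.3% in R1 and at 58.0% and 51.7% in R2, and RPL23 had changes of 3.20 and -0.397 points, with a log2 change of -0.11 from summed reads (edgeR). The fitted direction of RPL3, RPL23, OAS2 and TET1 turned in fits with 1 library left out, with RPL3 between -0.45 and 0.26 on the log2 scale, so it is not settled. Over all promoters 45.0% were lower and 12.5% higher in both.

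At 1 kb the number of calls depended on the libraries in the fit. Of 855475 tiles with at least 10 CpGs, edgeR called 23 lower (0.00269%) and 2 higher (0.000234%), no call touching another, with 69313 lower and 5678 higher at an unadjusted p under 0.05. limma called 0 in either direction, with 90511 and 9439. The 4 compared libraries alone, without the Knockdown libraries in the estimate of the spread, gave 960 lower and 75 higher (edgeR), all 25 of the other calls among them. Shared deficits of at least 10 points were 369 (0.0431%) and shared overshoots 81 (0.00947%), while R2 minus R1 gave 93 lower and 101 higher. Leaving out any of the 4 libraries gave between 41 and 168 tiles lower and between 7 and 22 higher, and of the 23 tiles between 6 and 15 were called again.

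The tile with the lowest weaker change, in LYST, a gene of lysosomal trafficking (chr1:235709001-235710000, 11 CpGs), was at 78.0% and 44.4% in R1 and at 72.1% and 50.1% in R2 (adjusted p = 0.00571, edgeR). The tile in PHF10, which encodes a subunit of a chromatin remodelling complex (chr6:169724001-169725000, 14 CpGs), was at 23.1% and 0% in R1 (0 of 117 reads, which allows up to 2.56%) and at 18.6% and 0.794% in R2 (adjusted p = 0.00157, edgeR). The tile at ISL1 and ISL1-DT (chr5:51383001-51384000, 74 CpGs) was at 27.7% and 17.0% in R1 and at 32.2% and 11.3% in R2 (adjusted p = 0.0224, edgeR). It covers part of both promoters above and rests on the same reads.

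NEDD9, a focal adhesion scaffold gene, had a tile at 77.9% and 66.5% in R1 and at 79.4% and 67.5% in R2. PIK3C2A, a lipid kinase gene, had a tile at 96.0% and 82.2% in R1 and at 95.6% and 85.5% in R2. GGACT had one at 94.96% and 84.5% in R1 and at 95.4% and 83.4% in R2. TPST1 and B3GNT9 held 2 more, and the last 2 of the 10 lay on chr9 and chr21 outside protein-coding genes. Of these 10 tiles 5 were lower in all 3 clones, against 92.6% of all tiles.

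Both tiles called higher were shared overshoots, so their Recovery values lay above both Baseline values by that rule. Neither call held in every fit with 1 library left out, since 0 of the 2 were called without the Baseline of R1 and 1 without the Baseline of R2 or the Recovery of R2. The tile in the noncoding gene FOXP4-AS1 (chr6:41470001-41471000, 26 CpGs) was at 44.5% at Baseline, 30.3% at Knockdown and 69.1% at Recovery in R1, and at 46.5%, 28.0% and 71.4% in R2 (adjusted p = 0.00559, edgeR). The tile in PDE3A, a cyclic nucleotide phosphodiesterase gene (chr12:20369001-20370000, 39 CpGs), was at 11.3%, 8.09% and 24.6% in R1 and at 14.2%, 6.998% and 31.8% in R2 (adjusted p = 0.0348, edgeR). Both tiles were lower at Recovery in all 3 clones, as most tiles were.

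At single CpGs deficits again outnumbered overshoots. Of the 23147668 CpGs, 17539 (0.0758%) were lower by at least 30 points in both populations and 8615 (0.0372%) were higher by as much. More CpGs could fall than rise that far. In both populations 18800549 CpGs (81.2%) had a Baseline high enough to fall by 30 points, and 6122132 (26.4%) one low enough to rise. The counts therefore do not compare how often CpGs able to change fell or rose. R2 minus R1 gave 9698 lower and 9991 higher at both stages, so overshoots were fewer than these. With at least 10 reads the counts were 6365 lower and 2501 higher, against 2738 and 2876. Low-density CpGs were 68.1% of the deficits and 64.0% of the overshoots, against 57.3% of all CpGs. In PMDs of the R1 Baseline lay 65.5% of the deficits and 74.6% of the overshoots, against 33.4% of all CpGs. The CpGs lower and higher by R2 minus R1 were 64.7% and 64.5% low-density, and 70.8% and 69.9% lay in PMDs. Shares above those of all CpGs were therefore not particular to changes over recovery.

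The following 8 CpGs had at least 20 reads in each of the 4 libraries and were taken for the size of their change, so their values are a description. They show the bases around CpGs with deep deficits (the first 4) and high overshoots (the last 4). They are examples, and are not given as the extremes of the whole genome. Each stretch is 30 bases of the hg38 plus strand with its only CpG in capitals.
TAFA1 chr3:68432999-68433028: cacctagcctaatcCGttcttccaaactct
GRIA1 chr5:153658503-153658532: agacttgcatgtttCGatagattagttgat
intergenic chr11:89513024-89513053: aatattttcacattCGgctgggtgcagtgg
CCT6B chr17:34929660-34929689: cctgccaccatcccCGgctaatttttgcat
ENSG00000290551 chr9:82733962-82733991: ctatctctctttttCGttgagacagagtct
intergenic chr15:63000272-63000301: caatgggaattcatCGggagcttgtgggat
intergenic chr1:13656701-13656730: caactagagtgacaCGgttgtcagaatcct
KIRREL3 chr11:126499599-126499628: gctcaagcattgcaCGccaaacatcccaaa

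The CpG in TAFA1 was at 60% and 15% in R1 and at 53.6% and 9.09% in R2. The CpG in GRIA1, a glutamate receptor gene, was at 68.2% and 15% in R1 and at 73.3% and 29.2% in R2. The nearest other CpG was 50 to 92 bp away from each of these 4 deficits. The CpG in ENSG00000290551 was at 18.2% and 59.1% in R1 and at 18.5% and 60% in R2, and the CpG in KIRREL3, an adhesion protein gene, at 38.5% and 77.8% in R1 and at 41.4% and 80% in R2. The nearest CpG was 16 bp away from both, and 75 and 45 bp away from the overshoots on chr15 and chr1.

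HMD coverage was smaller and PMD coverage larger at Recovery in both populations. HMDs covered 1517 Mb at Baseline and 1470.0 Mb at Recovery in R1, and 1533 and 1469 Mb in R2. PMDs covered 1308 and 1342.5 Mb in R1 (7449 and 8668 domains) and 1286 and 1338 Mb in R2 (7112 and 8487 domains). Of the Baseline HMD length 95.4% in R1 and 94.7% in R2 was HMD again at Recovery, against 98.2% and 97.2% shared between the Baselines. HMD was lost in both populations over 23.4 Mb and gained in both over 2.36 Mb. PMD was gained in both over 23.8 Mb and lost in both over 6.06 Mb. Because HMDs were drawn outside the other classes, HMD lost and PMD gained are not separate results. PMD length was kept to 97.3% in R1 and 97.9% in R2, against 96.3% and 97.9% shared between the Baselines. LMR coverage went from 244.7 to 249.0 Mb in R1 and from 250.2 to 245.0 Mb in R2, with no shared direction. UMR coverage was larger at Recovery in both, at 365.0 and 385.7 Mb in R1 and at 367.3 and 376.2 Mb in R2. LMRs and UMRs changed place about as much between the Baselines as over recovery. LMR length was kept to 72.8% and 72.1%, against 74.1% and 72.5% between the Baselines, and UMR length to 83.9% and 82.2%, against 82.5% and 81.9%.

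The HMD lost in both populations was high in methylation before and after. Its stretches were chosen by domain calls made on the same libraries, so the direction of their change is fixed in part by that choice and the values are a description. In its 1269 stretches of at least 5 kb, mean mC was 86.7% and 84.03% in R1 and 86.6% and 84.045% in R2. The longest, 82.4 kb on chr8 with the retinal channel gene CNGB3, was at 87.3% and 83.8% in R1 and at 87.3% and 83.3% in R2. The second, chr2:56899710-56976850, lies in the run of low windows on chr2 named above and was at 89.1% and 84.7% in R1 and at 88.5% and 84.5% in R2. The third, chr4:69301124-69378022, was at 85.8% and 83.0% in R1 and at 86.5% and 82.7% in R2. The fourth, chr2:210713582-210786435, was at 87.7% and 85.1% in R1 and at 88.0% and 85.7% in R2. The fifth, with CNBD1 on chr8, was at 91.6% and 88.2% in R1 and at 91.5% and 87.3% in R2.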

How the data were processed

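Whole-genome bisulfite libraries of 6 shDNMT1 bulk samples and 9 shUHRF1 clone samples were used. After bisulfite treatment only methylated cytosines are still read as C. The authors aligned reads to hg38 with Meth10X and deposited raw counts per CpG, both the reads that kept C and the total. Whether the strands of a CpG were summed, and how duplicates and variants were treated, was not given in the sources used here. All 29401360 positions on chromosomes 1 to 22, X and Y were checked to be CpG cytosines. The authors also deposited a list of domains per library. Per the study's methods, PMDs, LMRs and UMRs were called with MethylSeekR. HMDs were taken with bedtools as the sequence outside these, where its average mC reached a set minimum. The submitters' processing notes name bedtools 2.25.0.

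Here CpGs with at least 5 reads in all 4 libraries were used, and mC was averaged over CpGs. Regions were windows of 100 kb, promoters (GENCODE release 44, from 1 kb upstream to 100 bp downstream of the start) and tiles of 1 kb, with at least 5 CpGs (10 for tiles) and 50 reads in every library of the fit. Summed counts were tested with edgeR 4.0.16 (quasi-likelihood, methylation design) in R 4.3.3, on the 6 shDNMT1 libraries with the population as a block, so the Knockdown libraries enter the estimate of the spread. p-values were adjusted by Benjamini-Hochberg over each whole table, and under 0.05 was called. Alternatives were limma 3.58.1 on log2 ratios of methylated to unmethylated reads (pseudocount 1), the 4 libraries alone, all 15 libraries, no block, other filters and region sizes, and leaving out each library. The code was tested on simulated data. Tables were handled with Python 3.11.15, pandas 2.3.3 and numpy 2.4.6.

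The block was used because the study takes differences within parallel cultures, and the labels give R1 and R2 at each stage. R2 minus R1 at Baseline correlated with that at Recovery with r = 0.0224 and at Knockdown with r = -0.0236 over 28398 windows. R1 and R2 of a stage differed by more than counting error, with a chi-square per window of 3.39 to 6.53. This does not tell separate cultures from technical duplicates, which can also differ by more than counting error. Whether R1 and R2 come from separate transductions is not stated, so p-values cover the spread between these samples, which may be technical. Intervals cover counting error only.

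Named promoters were the 10 lowest and 10 highest by the change nearer to 0 of R1 and R2, among called and, where fewer were called, among shared ones. Named windows were the 5 lowest and 5 highest and named tiles the 10 lowest and highest by the same measure among called ones. Named domains were the 5 longest stretches in HMDs of both Baselines and of neither Recovery. Of each gene list the called or shared members and the lowest and highest mean change were named. The lowest member of 1 list is not reported here. The comparison, members, lists and tests were chosen with earlier results of these data known.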

Additional observations from a re-analysis of the deposited data

Results flagged for a closer look

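Of 57 named windows, promoters and tiles, 19 changed in one direction in both bulk populations and in the other in all 3 shUHRF1 clones. This difference between the shRNAs was not tested, and shRNA, bulk or clonal origin and table cannot be told apart. Mean changes over R1 and R2 are given in points. In 18 of them the mean bulk changes, averaged over CpGs, were above 0 and the clones were lower. They include SPRR1B and TET1, whose log2 change fitted from summed reads was -0.0094 without the Recovery library of R2 and -0.045 without that of R1 (edgeR), so their bulk direction is not settled. The clones were lower at Recovery in most places, all 3 of them in 99.8% of windows, 88.1% of promoters and 92.6% of tiles, so a region higher in the bulk populations usually differs from them in sign.

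Among windows these were chr20:7200001-7300000 (2.56), chr14:24600001-24700000 (2.89), chr13:101500001-101600000 (2.45), chr14:24500001-24600000 (2.24) and chr2:1200001-1300000 (2.41). Among tiles they were those in FOXP4-AS1 (24.8) and PDE3A (15.5). In the FOXP4-AS1 tile the clones lay between -9.42 and -3.90 points, and in the PDE3A tile between -22.0 and -14.2.

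Among the promoters named for their change they were OR1P1 (12.6), SPRR1B (11.3), TLR3 (10.0), ENSG00000286290 (13.5) and PCDH9-AS1 (11.3). At TLR3 the clones lay between -29.5 and -3.52 points. Among the highest members of the gene lists they were GNAS-AS1 (4.51), MAGEA1 (5.76), GATA5 (2.60), FOXA1 (4.99), CEACAM5 (1.78) and TET1 (1.98), the last with changes of 3.71 points in R1 and 0.252 in R2. At MAGEA1, GATA5 and CEACAM5 R2 minus R1 at Baseline was 7.02, 3.70 and -3.75 points, larger in size than both bulk changes. PEG10 was the 1 region with the opposite pattern. Its promoter was lower in the bulk populations, with a mean change of -13.8 points, and higher in the clones by 1.16 to 14.6 points. All 3 clones were higher at 0.0384% of promoters. The regions were taken as extremes of the bulk changes, so a change on the other side elsewhere is not independent of the choice.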

How the results depend on the processing

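The genome-wide mean change moved to -1.19 points at 10 reads and -0.878 when weighted by reads. Low minus high density was -0.792 with CpGs chosen in their own Baseline and -0.470 with distances to the downstream CpG only. By Baseline domain class, the HMD mean over own lists was -1.26 points and moved to -1.30 at 10 reads, -1.23 in HMDs of both Baselines and -1.23 in those of the other Baseline. PMDs moved from -1.16 to -1.17, -1.15 and -1.18 under the same alternatives, and UMRs from -0.148 to -0.245, -0.242 and -0.454. LMRs turned from 0.244 to -0.154 in both Baselines and -0.729 in the other Baseline.

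Windows called lower and higher were 0 and 0 with all 15 libraries and 4049 and 38 at 10 kb, and 3790 to 10320 and 13 to 65 with 1 library left out. Without the replicate block 10275 windows were called lower and 18 higher. Promoter calls were 0 and 1 with the 4 libraries alone, 1 and 2 at 500 bp on either side, and 0 to 5 and 0 to 3 with 1 library left out. Tile calls were 0 and 0 by limma, 960 and 75 with the 4 libraries alone, 3 and 0 at 20 or more CpGs, and 130 and 22 with no minimum. They were 22 and 1 with no replicate block, and 41 to 168 and 7 to 22 with 1 library left out. The causes of these moves were not tested, apart from the fewer or more regions tested at other sizes and minimums.

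Shared deficits and overshoots were 11876 and 34 windows at 1 point and 17 and 0 at 5 points. They were 3203 and 432 promoters at 2 points, 28 and 6 at 10 points, and 852 and 251 from summed reads. They were 11882 and 1691 tiles at 5 points, 1 and 3 at 20 points, 814 and 213 from summed reads, and 136 and 37 at 10 reads per CpG. Single CpGs were 6365 and 2501 at 10 reads, 112955 and 57162 at 20 points, and 289 and 158 at 50 points, the last pair of limits added after the data were seen. LMR length kept was 55.1% in R1 and 53.9% in R2 in domains of at least 5 kb, against 56.0% and 54.5% between the Baselines. In each of these settings with at least 10 shared regions, deficits outnumbered overshoots.

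Of the named promoters, log2 changes of the methylation odds turned sign in some of the fits with 1 library left out. SPRR1B ranged from -0.0094 to 0.99, OAS2 from -0.14 to 0.071, TET1 from -0.045 to 0.56, RPL3 from -0.45 to 0.26 and RPL23 from -0.55 to 0.35. Depth limits single CpGs and promoters with few CpGs.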
